A study of Homo sapiens with 8 samples.

Results

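The 9 genes described here make or use small RNAs, the route through which an siRNA also acts. They are DROSHA, DGCR8, XPO5, DICER1, TARBP2, PRKRA, TNRC6A, TNRC6B and TNRC6C. They were chosen by symbol for this role, with no measured value in the rule, although earlier results of these data were known. All 9 were found among 23686 gene symbols in each library, and all 9 were among the 14249 genes tested. Messenger RNA was sequenced from a pair of established human triple-negative breast cancer lines, HS578T and MDA-MB-231, each after siRNA depletion of GPX1 (siGpx1) and as control. There were 2 libraries in each of the 4 groups, siGpx1 and control in each line. GPX1 encodes a glutathione peroxidase, which reduces hydrogen peroxide, and the title of the series links it to metastasis. The titles carry an siRNA prefix, whereas the genotype tag writes the depleted samples as Gpx1-/-, and the level of GPX1 below is that of a depletion with transcript left. The control treatment is not described in the labels. The names of the deposited control tables carry the abbreviation siCON, which no label spells out. The number of siRNAs, their sequences and the time after transfection were not in the labels, and each line stands for a single cell line.

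MicroRNAs begin as hairpins in long nuclear transcripts. DROSHA, an RNase III enzyme, and its RNA-binding partner DGCR8 cut the hairpin out, and XPO5 (exportin 5) carries it to the cytoplasm. There DICER1, another RNase III enzyme, trims it to a short duplex with the help of the double-stranded RNA-binding proteins TARBP2 and PRKRA. One strand is kept by an Argonaute protein, and the TNRC6 (GW182) scaffolds tie that Argonaute to the enzymes that shorten and decap the target messenger. A synthetic siRNA duplex enters at the Argonaute step and needs neither DROSHA nor XPO5.

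DGCR8 is unusual among them in that its own messenger holds hairpins that DROSHA and DGCR8 can cut, a known feedback on DGCR8. RefSeq (GRCh38.p14) lists mature microRNAs from these hairpins on the plus strand of chromosome 22. They are printed because reads of DGCR8 come from the same transcript, with the seed, bases 2 to 8, in capitals.
hsa-miR-3618: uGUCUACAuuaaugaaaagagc
hsa-miR-1306-5p: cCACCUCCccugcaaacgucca
hsa-miR-1306-3p: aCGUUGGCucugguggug
The first lies in an untranslated exon of DGCR8 (chr22:20085797-20085818), and the others lie in a coding exon (chr22:20086072-20086093 and chr22:20086112-20086129). The 3 seeds differ from each other. The separate rows for MIR3618 and MIR1306 held 0 counts in every library, and of 1305 microRNA rows, these included, 1 held a count, so these libraries show the genes that process microRNAs and not the microRNAs.

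Other sequences concern the targets of small RNAs. Among 16384 heptamers searched in 3′ UTRs of GENCODE 29 transcripts (GRCh38; 13135 genes, 92.2% of those tested), GGGCATC and GGCATCA were the heptamers most strongly associated with lower values after depletion in both lines. GGGCATC was held by 7.93% of the searched UTRs and GGCATCA by 9.09%. Only the given strand of the transcript was searched, and both heptamers are contained in GGGCATCA. The coding region of GPX1 on chromosome 3 (bases 555 to 584 of a 1151-base transcript) holds the same letters, and of the 9 genes XPO5 on chromosome 6 and TNRC6B on chromosome 22 hold a match in the 3′ UTR. Matches are shown in capitals.
GPX1: gcaaccagtttGGGCATCAggagaacgcca
XPO5: agcttttGGGCATCcttcctc
TNRC6B: cagaaaaGGGCATCAaaaagag
The match in XPO5 starts 12 bases after the stop codon in a UTR of 1538 bases, and 13.0% of UTRs of like length hold one. That in TNRC6B starts at base 11605 of a UTR of 12567 bases, where 66.7% of 90 UTRs of like length hold one. The UTRs of the other 7 genes, of 283 (TARBP2) to 4270 (DICER1) bases, held 0 matches. Over all searched genes, the median log2 fold change of those holding either heptamer was -0.18 in HS578T and -0.20 in MDA-MB-231, against 0.04 and -0.0027 for genes holding neither these nor the 4 heptamers associated with higher values. Since the heptamers were picked on these same fold changes, the medians describe that choice and support nothing. The match in GPX1 came from a search of the whole transcript, and the share of transcripts of like length that hold one was not computed. A match is a run of letters and not a measured site.

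The 8 libraries held 12905808 to 14216365 estimated counts each. GPX1 itself had 9.52 and 9.02 TPM (an abundance scaled for transcript length and library total) in HS578T siGpx1, against 232 and 232 TPM in HS578T control. It had 21.8 and 20.4 TPM in MDA-MB-231 siGpx1, against 594 and 634 TPM in MDA-MB-231 control, so that 3.99% and 3.43% of the control level remained in HS578T and MDA-MB-231. The labels give the cell type as epithelial. In HS578T, 4 of 8 epithelial markers (KRT8, KRT18, KRT14 and KRT17) had means over 1 CPM in both groups. KRT18 was the highest of them, at a mean of 525 CPM in HS578T siGpx1 and 179 CPM in HS578T control. EPCAM and CDH1 were under 1 CPM in every HS578T library. All 6 fibroblast markers (COL1A1, COL1A2, COL3A1, PDGFRB, DCN and LUM) were over 1 CPM in HS578T. Summed over 8 epithelial markers, HS578T siGpx1 held 666 to 712 CPM against 284 to 297 CPM in HS578T control, with KRT5 at 0 in both, and MDA-MB-231 siGpx1 held 1756 to 1804 CPM against 1120 to 1125 CPM in MDA-MB-231 control. The leukocyte marker CD3E was at 0 in every group, and the sum of 6 leukocyte markers was 48.4 to 53.4 CPM in HS578T siGpx1 against 70.3 to 70.8 CPM in HS578T control. The part of these markers in the results below was not tested. Replicates differed most in HS578T siGpx1, where the chi-square between the 2 libraries averaged 3.86 a gene, against 1.91 in HS578T control, 1.34 in MDA-MB-231 siGpx1 and 1.68 in MDA-MB-231 control. The labels do not say that replicates were separate cultures, so a p-value here measures the spread between libraries, which may be technical. In bulk libraries, fewer cells with a transcript and less transcript per cell cannot be told apart.

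The genes ranged from the upper part to the lower part of all levels. By mean TPM over the 8 libraries, XPO5, DROSHA, DICER1, PRKRA and TNRC6A stood between the 62.7 and 75.9 percentiles of 13491 genes measured in every library. TARBP2 and DGCR8 stood at the 57.5 and 53.9 percentiles, and TNRC6B and TNRC6C at 24.9 and 20.8. The highest of the 9 was 9.25 to 16.8 times the lowest in a given library.

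**Figure D1:**
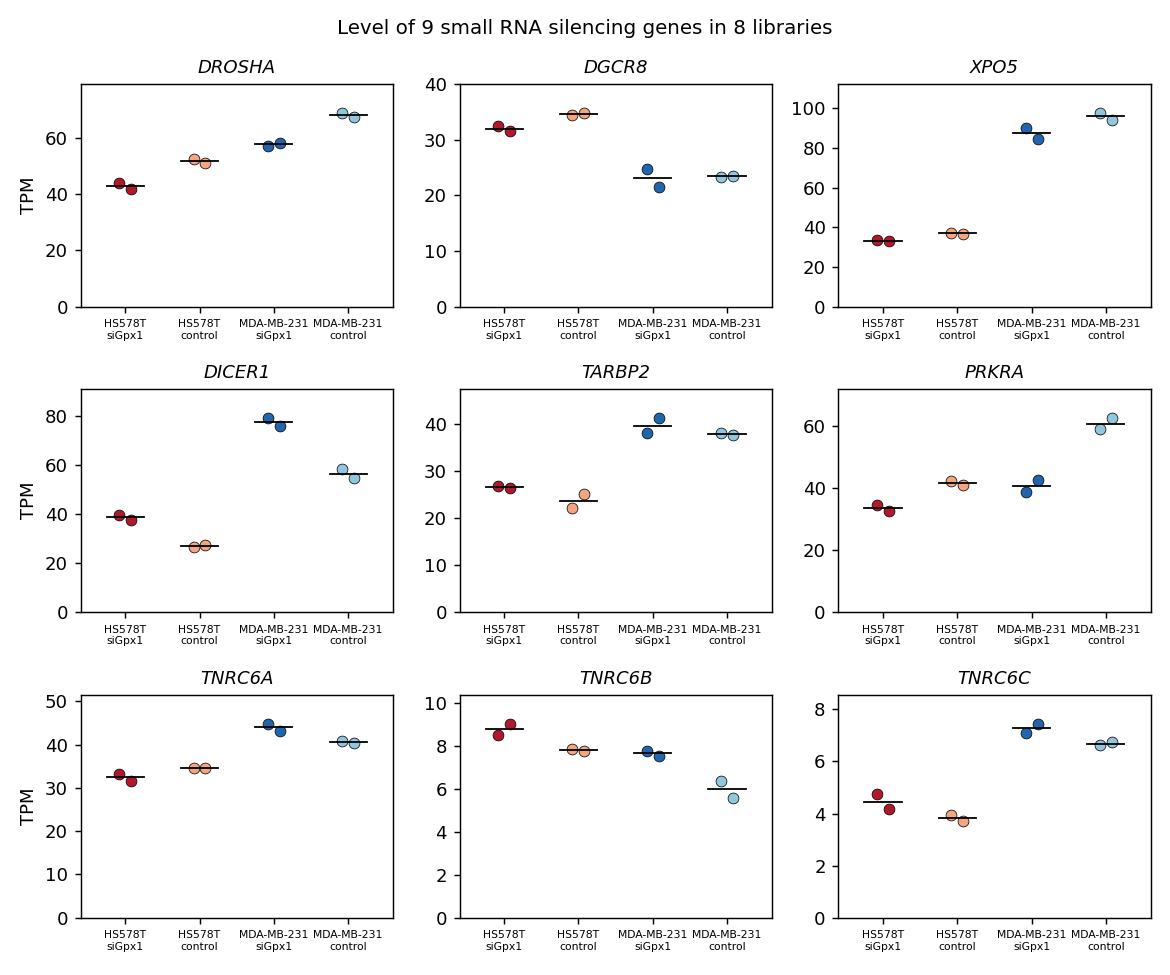
Level of each of the 9 genes in every library, in TPM, with siGpx1 left of control in each line; each point is a library and each bar the mean of 2. DICER1 points of siGpx1 lie above and DROSHA points below those of control in both lines, and XPO5 is the most separated between the lines.

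After depletion of GPX1, DICER1 and TNRC6B rose in both lines and DROSHA and PRKRA fell in both. DGCR8 and TARBP2 passed in neither line, and XPO5, TNRC6A and TNRC6C passed in a single line each. The changes were modest, at most 1.51-fold. Rounded expected counts were tested by edgeR's quasi-likelihood method, and a change was called where p was under 0.05 after Benjamini-Hochberg adjustment over all 14249 genes. In HS578T, 3 of the 9 were called higher and 2 lower, where 28.6% of all genes tested were called higher and 22.1% lower. That majority turned under other settings. The stricter filter, each line fitted alone and both TPM fits gave 48.5 to 49.3% of the calls in HS578T higher, against 56.4% here. The majority also turned, by little, without any single MDA-MB-231 library, and held without any single HS578T library. In MDA-MB-231, 3 were called higher and 3 lower, where 20.7% and 21.9% of all genes were. In either direction, 5 and 6 of the 9 passed in HS578T and MDA-MB-231, against 50.7% and 42.6% of all genes, and nothing particular to the 9 is read from these counts. The median absolute log2 fold change of the 9 was 0.22 in HS578T and 0.14 in MDA-MB-231, beside 0.28 and 0.22 over all genes. The 2 lines have separate controls. Averaged over both lines, DICER1, TNRC6B and TNRC6C were called higher (log2 0.51, 0.29 and 0.19) and PRKRA, DROSHA and XPO5 lower (-0.43, -0.23 and -0.12), where 28.7% of all genes were called higher, 25.2% lower and 54% in either direction. Of all genes, 14.9% were called higher in both lines, 14.3% lower in both and 37.5% in neither.

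**Figure D2:**
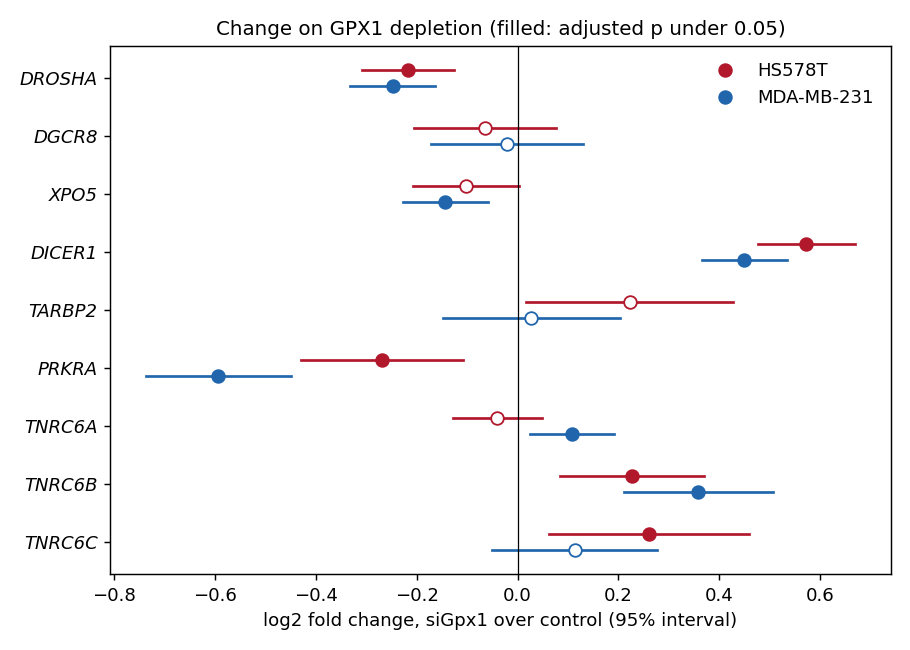
Log2 fold change of each of the 9 genes, siGpx1 over control, in HS578T and MDA-MB-231, with 95% intervals from edgeR's fit; filled points passed at an adjusted p under 0.05. DICER1 lies to the right of 0 and DROSHA and PRKRA to the left in both lines, and PRKRA lies further left in MDA-MB-231.

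In the nuclear step, DROSHA fell in both lines and DGCR8 passed in neither. DROSHA had 43.95 and 42.0 TPM in HS578T siGpx1, against 52.4 and 51.2 TPM in HS578T control. It had 57.2 and 58.3 TPM in MDA-MB-231 siGpx1, against 68.9 and 67.5 TPM in MDA-MB-231 control. Both siGpx1 libraries lay below both control libraries in each line. Such separation was common among all tested genes, by CPM scaled with TMM factors. In HS578T 40.5% of them lay higher and 31.7% lower in siGpx1 without overlap, and in MDA-MB-231 35.7% and 35.8%. The same shares stand beside each lack of overlap between siGpx1 and control given below for a gene, and nothing is read from it alone. The log2 fold change was -0.22 ± 0.04 (SE) in HS578T (adjusted p = 0.000487) and -0.25 ± 0.04 in MDA-MB-231, with an adjusted p = 0.000104 there (edgeR's quasi-likelihood test). It passed in all 17 alternative settings in each line.

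DGCR8 had 32.4 and 31.5 TPM in HS578T siGpx1, against 34.5 and 34.9 TPM in HS578T control. Although the HS578T groups did not overlap, the log2 fold change of -0.06 did not pass (95% interval -0.20 to 0.08, adjusted p = 0.45 by edgeR's quasi-likelihood test). In MDA-MB-231 it had 24.8 and 21.6 TPM in siGpx1 libraries and 23.3 and 23.5 TPM in control libraries, with the groups overlapping and a log2 fold change of -0.02 (95% interval -0.17 to 0.13, adjusted p = 0.856). The sign in MDA-MB-231 was the opposite under DESeq2 size factors, DESeq2, the stricter filter and 3 of the single-library omissions, and none of those passed. DROSHA stood at 1.36 and 1.33 times the TPM of DGCR8 in HS578T siGpx1, against 1.52 and 1.47 times in HS578T control, and at 2.31 and 2.71 times in MDA-MB-231 siGpx1, against 2.95 and 2.88 times in MDA-MB-231 control.

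XPO5, the exporter, had 33.3 and 33.1 TPM in HS578T siGpx1, against 37.3 and 36.7 TPM in HS578T control. It had 90.0 and 84.4 TPM in MDA-MB-231 siGpx1, against 97.7 and 94.0 TPM in MDA-MB-231 control. The siGpx1 libraries lay below the control libraries in both lines, and the gap was the smallest among those of the 9 called lower in MDA-MB-231. The fall passed in MDA-MB-231 (log2 -0.14 ± 0.04, adjusted p = 0.00799 by edgeR's quasi-likelihood test) and not in HS578T (log2 -0.10 ± 0.05, adjusted p = 0.0981). Neither call was firm. In MDA-MB-231 it was lost under DESeq2 (adjusted p = 0.188), the stricter filter (0.0623), both TPM fits and without any single MDA-MB-231 library (0.0556 to 0.527), with a log2 value of -0.07 without control replicate 1 and -0.05 without siGpx1 replicate 2. In HS578T a fall was called under 9 settings (adjusted p down to 0.0134). Its 3′ UTR holds the GGGCATC match printed above.

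DICER1 was the gene of the 9 that rose most. It had 39.8 and 37.7 TPM in HS578T siGpx1, from 2053 and 2058 counts, against 26.6 and 27.4 TPM in HS578T control, from 1500 and 1494 counts. It had 79.3 and 76.0 TPM in MDA-MB-231 siGpx1, against 58.4 and 54.8 TPM in MDA-MB-231 control. The groups were far apart in each line relative to the gap between replicates. The rise was 1.49-fold in HS578T (log2 0.57 ± 0.05 SE) and 1.37-fold in MDA-MB-231 (log2 0.45 ± 0.04), with adjusted p = 3.69e-08 and 2.07e-07 by edgeR's quasi-likelihood test. Of all genes, 23.5% in HS578T and 24.0% in MDA-MB-231 changed by more. It passed in all 17 alternatives, with log2 values from 0.51 to 0.59 in HS578T and from 0.45 to 0.54 in MDA-MB-231. The antisense gene DICER1-AS1, which shares exon sequence with it, held 0 to 5 counts a library. By mean TPM, DICER1 took the second place among the 9 in siGpx1 of both lines, against the sixth in HS578T control and the fourth in MDA-MB-231 control.

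With DICER1 higher and DROSHA lower, the ratio of these RNase III enzymes was higher in the siGpx1 libraries. DICER1 stood at 0.906 and 0.898 times the TPM of DROSHA in HS578T siGpx1, against 0.507 and 0.536 times in HS578T control. It stood at 1.39 and 1.30 times in MDA-MB-231 siGpx1, against 0.847 and 0.812 times in MDA-MB-231 control. The groups did not overlap in either line, and in MDA-MB-231 the order of the enzymes was reversed. This ratio restates the separate changes of a gene called higher and a gene called lower. Lack of overlap was not counted over other pairs of genes, and the ratio was not tested on its own.

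Of the partners of DICER1, PRKRA fell in both lines. PRKRA, which also activates the kinase EIF2AK2 (PKR), had 34.5 and 32.8 TPM in HS578T siGpx1, against 42.2 and 41.2 TPM in HS578T control. In MDA-MB-231 it had 38.7 and 42.6 TPM in siGpx1 libraries and 59.1 and 62.6 TPM in control libraries. Both siGpx1 libraries lay below both controls in each line, and further below in MDA-MB-231. The log2 fold change was -0.27 ± 0.08 in HS578T (adjusted p = 0.0073) and -0.59 ± 0.07 in MDA-MB-231 (adjusted p = 3.37e-06, edgeR's quasi-likelihood test). The call in HS578T was lost in 1 of 17 settings, DESeq2 (adjusted p = 0.0535).

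PRKRA was the sole gene of the 9 for which the difference between the lines passed, at -0.32 ± 0.10 on the log2 scale for MDA-MB-231 minus HS578T (adjusted p = 0.0387 by edgeR's quasi-likelihood test), with 0 of the 9 called higher and 1 lower, where 6.32% of all genes were called higher, 10.7% lower and 17% in either direction. The share of all such calls that were higher was 37.1%. It was 55.6% under DESeq2 size factors, 57.5% under DESeq2, 67.9% under the stricter filter, and 53.5 and 53.6% in the TPM fits. Most of these calls were also higher without any single MDA-MB-231 library, while most stayed lower without any single HS578T library. The difference for PRKRA passed under limma-voom and the replicate block, and was lost under DESeq2 size factors (adjusted p = 0.0937), DESeq2 (0.41), no filter (0.0557), the stricter filter (0.144), both TPM fits and without each single library in turn (0.0545 to 0.432). Its size was -0.16 without MDA-MB-231 siGpx1 replicate 1 and -0.18 without MDA-MB-231 control replicate 2. GENCODE 29 places exons of PJVK on the opposite strand over part of PRKRA. Exons on the opposite strand also lie over part of DICER1, DGCR8, XPO5 (POLR1C), TARBP2 and TNRC6C (TNRC6C-AS1). None lie over DROSHA, TNRC6A or TNRC6B. Whether counting used strand is not given in the sources used here.

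TARBP2, which in contrast to PRKRA inhibits EIF2AK2, had 26.8 and 26.3 TPM in HS578T siGpx1, against 22.2 and 25.1 TPM in HS578T control. It had 38.0 and 41.1 TPM in MDA-MB-231 siGpx1, against 38.0 and 37.6 TPM in MDA-MB-231 control. The siGpx1 libraries lay above the controls in HS578T, while the groups overlapped in MDA-MB-231. Neither difference passed, at log2 0.22 (95% interval 0.02 to 0.43, adjusted p = 0.0667) in HS578T and 0.03 (95% interval -0.15 to 0.20, adjusted p = 0.833) in MDA-MB-231 by edgeR's quasi-likelihood test. In HS578T it passed without control replicate 2 (adjusted p = 0.0383). TARBP2 rested on 195 to 354 counts a library, among the fewest of the 9.

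The TPM of TARBP2 over that of PRKRA was 0.777 and 0.803 in HS578T siGpx1, against 0.525 and 0.610 in HS578T control. It was 0.981 and 0.966 in MDA-MB-231 siGpx1, against 0.644 and 0.601 in MDA-MB-231 control. The groups did not overlap in either line, and this ratio too was not tested on its own or set beside other pairs of genes.

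**Figure D3:**
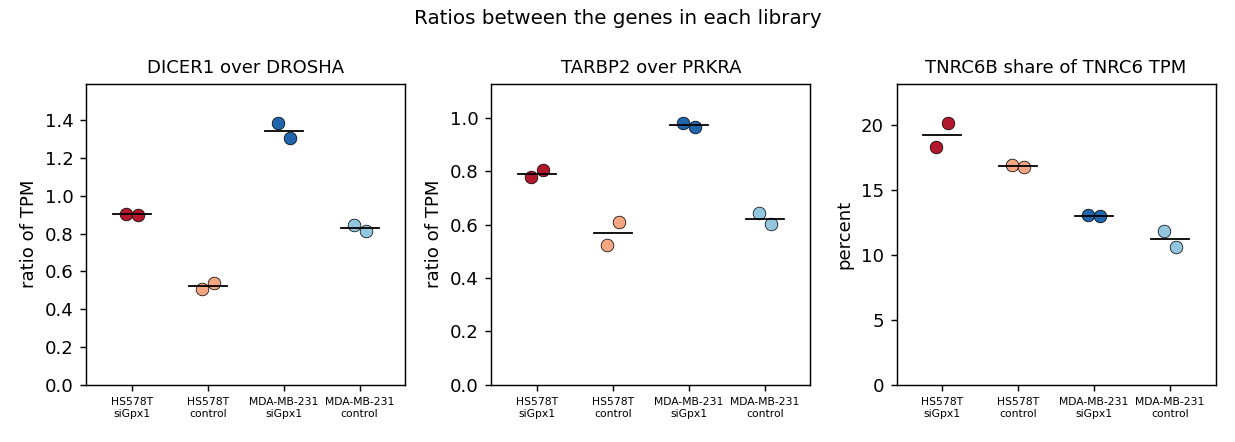
Ratios of TPM and the share of TNRC6B in the TNRC6 total, in percent, in each library, with siGpx1 left of control in each line; each point is a library and each bar the mean of 2. DICER1 over DROSHA and TARBP2 over PRKRA lie higher in siGpx1 libraries of both lines, without overlap. Neither ratio was tested on its own or set beside other pairs of genes.

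Of the scaffolds, TNRC6B rose in both lines. It had 8.53 and 9.04 TPM in HS578T siGpx1, against 7.84 and 7.75 TPM in HS578T control. It had 7.79 and 7.54 TPM in MDA-MB-231 siGpx1, against 6.36 and 5.59 TPM in MDA-MB-231 control. The siGpx1 libraries lay above the controls in each line. The log2 fold change was 0.23 ± 0.07 in HS578T (adjusted p = 0.0103) and 0.36 ± 0.07 in MDA-MB-231 (adjusted p = 0.00057, edgeR's quasi-likelihood test). It passed in all 17 alternatives in MDA-MB-231. In HS578T it was lost in 6 of 17, namely DESeq2, both TPM fits and without HS578T siGpx1 replicate 2 (adjusted p = 0.0924), MDA-MB-231 siGpx1 replicate 1 (0.0507) or replicate 2 (0.051). Its 3′ UTR holds 1 match to the heptamers printed above and 13 to the 4 associated with higher values, which all UTRs of like length hold.

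TNRC6C had 4.75 and 4.16 TPM in HS578T siGpx1, against 3.96 and 3.73 TPM in HS578T control, and 7.09 and 7.45 TPM in MDA-MB-231 siGpx1, against 6.63 and 6.73 TPM in MDA-MB-231 control. The siGpx1 libraries were higher in both lines, by little more than the gap between replicates in HS578T. It passed in HS578T (log2 0.26 ± 0.09, adjusted p = 0.0284) and not in MDA-MB-231 (log2 0.11 ± 0.08, adjusted p = 0.26) by edgeR's quasi-likelihood test. The call in HS578T held in 5 of 17 alternatives and was lost without any single library but HS578T siGpx1 replicate 2 (adjusted p 0.0571 to 0.277), with a log2 value of 0.16 without HS578T siGpx1 replicate 1.

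TNRC6A, the most abundant of the scaffolds, had 33.3 and 31.7 TPM in HS578T siGpx1, against 34.6 and 34.7 TPM in HS578T control. It had 44.8 and 43.2 TPM in MDA-MB-231 siGpx1, against 40.9 and 40.3 TPM in MDA-MB-231 control. The siGpx1 libraries were lower in HS578T and higher in MDA-MB-231, without overlap in either. The change passed in MDA-MB-231 (log2 0.11 ± 0.04, adjusted p = 0.0368) and not in HS578T (log2 -0.04 ± 0.04, adjusted p = 0.46) by edgeR's quasi-likelihood test. It was lost in MDA-MB-231 under DESeq2 (adjusted p = 0.0587), both TPM fits and without HS578T control replicate 1 (0.0532) or 2 (0.0507) or MDA-MB-231 siGpx1 replicate 1 (0.0777), and was log2 0.18 without MDA-MB-231 siGpx1 replicate 2. The difference between the lines was 0.15 ± 0.06 and did not pass (adjusted p = 0.0918), although it did in 6 of 16 alternatives, namely DESeq2 size factors (0.0231), the stricter filter (0.00497) and 4 of the 8 single-library omissions (0.0261 to 0.0417).

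The summed TPM of the 3 scaffolds was 46.6 and 44.9 in HS578T siGpx1, against 46.4 and 46.2 in HS578T control. It was 59.7 and 58.2 in MDA-MB-231 siGpx1, against 53.9 and 52.7 in MDA-MB-231 control. TNRC6A made up 70.6 to 76.6% of it in every library. The share of TNRC6B was 18.3 and 20.1% in HS578T siGpx1, against 16.9 and 16.8% in HS578T control, and 13.0 and 13.0% in MDA-MB-231 siGpx1, against 11.8 and 10.6% in MDA-MB-231 control. Summed over all 9 genes, the level was 257 and 248 TPM in HS578T siGpx1, against 262 and 263 TPM in HS578T control, and 388 and 382 TPM in MDA-MB-231 siGpx1, against 399 and 393 TPM in MDA-MB-231 control.

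In the controls of the lines, 7 of the 9 were called higher in MDA-MB-231 than in HS578T and 2 lower, where 43% and 38.6% of all genes tested were called so and 81.6% in either direction. The median absolute log2 difference of the 9 was 0.52, beside 0.68 over all genes. XPO5 was 2.36-fold higher in MDA-MB-231 (log2 1.24 ± 0.04, adjusted p = 2.88e-13) and DICER1 1.91-fold higher (log2 0.93 ± 0.04, adjusted p = 1.11e-11). TNRC6C, TARBP2, PRKRA and DROSHA were higher by log2 0.66, 0.52, 0.41 and 0.26. DGCR8 was 1.63-fold lower in MDA-MB-231 (log2 -0.70 ± 0.07, adjusted p = 9.07e-08), and TNRC6B was lower by log2 -0.52 ± 0.07 (adjusted p = 4.14e-06, all by edgeR's quasi-likelihood test). The 2 genes of the nuclear step thus differed between the lines in opposite directions. TNRC6A differed by 0.10 ± 0.04 (adjusted p = 0.0371), a call lost under DESeq2 size factors (0.188), DESeq2 (0.406), no filter (0.0597), the stricter filter (0.598) and without any MDA-MB-231 library or HS578T control library (0.129 to 0.428).

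The order of levels by TPM differed accordingly. In HS578T control the order was DROSHA, PRKRA, XPO5, DGCR8, TNRC6A, DICER1, TARBP2, TNRC6B and TNRC6C, with DGCR8 and TNRC6A overlapping. In HS578T siGpx1 DICER1 followed DROSHA, and PRKRA, XPO5, TNRC6A and DGCR8 overlapped with their neighbours. In MDA-MB-231 control the order was XPO5, DROSHA, PRKRA, DICER1, TNRC6A, TARBP2, DGCR8, TNRC6C and TNRC6B, with no neighbours overlapping. In MDA-MB-231 siGpx1 XPO5 was followed by DICER1, DROSHA and TNRC6A, and the values of PRKRA overlapped those of TARBP2.

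RSEM's mean transcript length, which moves with the mix of isoforms, was nearly constant. XPO5 and TNRC6A have 1 listed transcript each. PRKRA had 1813 and 1826 bases in HS578T siGpx1, against 1832 and 1830 bases in HS578T control, without overlap. TARBP2 had 1598 and 1597 bases in MDA-MB-231 siGpx1, against 1609 and 1647 bases in MDA-MB-231 control, also without overlap. DICER1 in HS578T (10226.9 and 10241.6 bases in siGpx1, against 10243.4 and 10241.7 bases in control) was also without overlap. So was DROSHA in MDA-MB-231 (5402.78 and 5399.43 bases in siGpx1, against 5398.98 and 5399.17 bases in control). The share of all genes whose lengths separate in this way was not computed, and nothing is read from the lack of overlap. These differences were not tested.

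Genes whose pattern over the 4 group means was most like that of DICER1, among 14248 compared, were VTI1B, NUP133 and ZNF571, with root mean square differences of 0.0211, 0.0225 and 0.0253 on the centred log2 scale over 8 libraries. For DROSHA they included LIME1 and RBM15B, at 0.0159 and 0.0184.

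The wider pathway was described from lists chosen with earlier results known. Of 13 Argonaute and partner genes, 5 rose and 2 fell in HS578T, and 6 rose and 2 fell in MDA-MB-231, with median log2 fold changes of 0.05 and 0.10 beside 0.04 and 0 for all genes. Over all genes tested, 28.6% rose and 22.1% fell in HS578T, and 20.7% rose and 21.9% fell in MDA-MB-231. AGO1, an Argonaute that carries microRNAs, had 28.5 and 28.1 CPM in HS578T siGpx1, against 45.8 and 47.3 CPM in HS578T control. It had 19.7 and 19.8 CPM in MDA-MB-231 siGpx1, against 30.2 and 33.3 CPM in MDA-MB-231 control. It fell by 0.66 ± 0.07 in HS578T and by 0.68 ± 0.07 in MDA-MB-231 on the log2 scale (adjusted p = 6.17e-07 and 2.27e-06 by edgeR's quasi-likelihood test). AGO4 rose in both lines (log2 0.36 in HS578T and 0.28 in MDA-MB-231). AGO2, the slicing Argonaute that siRNAs use, had 43.1 and 40.6 CPM in HS578T siGpx1, against 41.7 and 42.5 CPM in HS578T control, and did not pass there (adjusted p = 0.527). In MDA-MB-231 it rose to 52.8 and 53.3 CPM in siGpx1 libraries, against 44.1 and 42.6 CPM in control libraries (log2 0.29 ± 0.06, adjusted p = 0.00124). LIMD1, an Argonaute-binding scaffold, fell in both lines (log2 -0.33 in HS578T and -0.25 in MDA-MB-231). Its call in MDA-MB-231 was lost without MDA-MB-231 control replicate 1 (adjusted p = 0.0652), siGpx1 replicate 1 (0.0773) or siGpx1 replicate 2 (0.054, edgeR's quasi-likelihood test). TSNAX (log2 0.30 in HS578T and 0.28 in MDA-MB-231) and FMR1 (0.29 and 0.31) rose in both lines. AGO3 rose in HS578T (log2 0.44) and had a log2 fold change of 0.18 in MDA-MB-231, which did not pass.

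Of 24 deadenylation and decapping genes, which act on the messenger after TNRC6 proteins bind, 8 rose and 6 fell in HS578T, and 8 rose and 7 fell in MDA-MB-231 (medians 0.09 and 0.08), where 50.7% and 42.6% of all genes changed in either direction. The largest changes were opposed within the decapping complex. DCP2, its catalytic subunit, had 116 and 117 CPM in HS578T siGpx1, against 46.3 and 46.5 CPM in HS578T control, and 144 and 148 CPM in MDA-MB-231 siGpx1, against 48.6 and 45.2 CPM in MDA-MB-231 control. EDC3, an enhancer of decapping, had 12.22 and 13.96 CPM in HS578T siGpx1, against 30.2 and 29.1 CPM in HS578T control, and 15.7 and 15.5 CPM in MDA-MB-231 siGpx1, against 43.3 and 45.2 CPM in MDA-MB-231 control. The groups were far apart for each gene in each line. The log2 fold change of DCP2 was 1.39 ± 0.05 in HS578T (adjusted p = 5.5e-12) and 1.64 ± 0.05 in MDA-MB-231, with an adjusted p = 1.27e-12 there (edgeR's quasi-likelihood test). That of EDC3 was -1.12 ± 0.08 in HS578T (adjusted p = 1.69e-08) and -1.503 ± 0.07 in MDA-MB-231, with an adjusted p = 2.62e-10 there (the same test). The deadenylase CNOT6 (log2 -0.66 in HS578T and -0.49 in MDA-MB-231) and LSM14A (-0.43 and -0.44) fell in both lines, and DCP1B (0.75 and 0.78), LSM1 (0.60 and 0.24) and CNOT6L (0.24 and 0.40) rose in both.

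**Figure D4:**
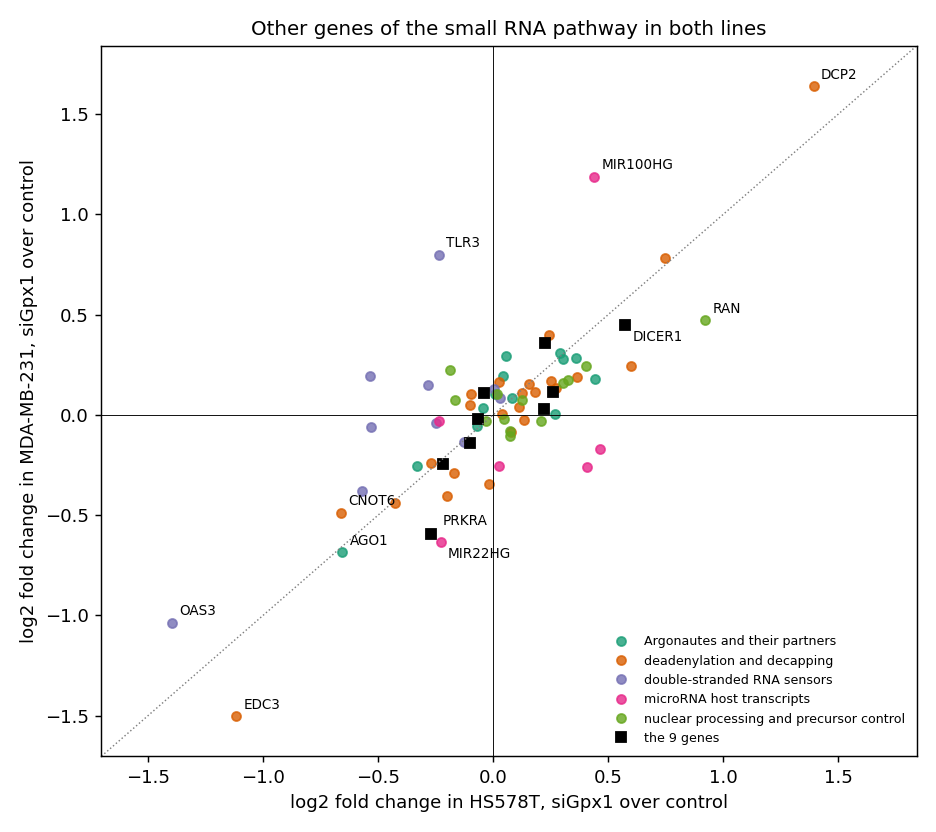
Log2 fold change in HS578T (x) against MDA-MB-231 (y), siGpx1 over control for the 9 genes (black squares) and the genes of the pathway lists with a mean of at least 1 CPM in each line; the dotted line marks equal change. DCP2 lies at the upper right and EDC3 and OAS3 at the lower left.

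Of 13 genes of nuclear processing and precursor control, 6 rose and 1 fell in HS578T, and 5 rose and 0 fell in MDA-MB-231 (medians 0.07 in each), where 28.6% of all genes rose and 22.1% fell in HS578T, and 20.7% rose and 21.9% fell in MDA-MB-231. RAN, the GTPase that XPO5 needs for export, had 233 and 274 CPM in HS578T siGpx1, against 139 and 140 CPM in HS578T control, and 357 and 364 CPM in MDA-MB-231 siGpx1, against 257 and 263 CPM in MDA-MB-231 control. Its rise of 0.92 ± 0.05 in HS578T exceeded that of 0.47 ± 0.05 in MDA-MB-231 on the log2 scale, with an adjusted p = 0.000713 for the difference by edgeR's quasi-likelihood test. SRSF3, a splicing factor that aids DROSHA cleavage, rose by 0.41 in HS578T and 0.24 in MDA-MB-231, and HNRNPA2B1 by 0.32 and 0.17. ADAR, an enzyme that edits double-stranded RNA, fell in HS578T (log2 -0.19 ± 0.04) and rose in MDA-MB-231 (0.22 ± 0.04), and the difference passed (adjusted p = 7.33e-05 by edgeR's quasi-likelihood test).

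Double-stranded RNA sensors, which can respond to introduced duplexes, numbered 10. In HS578T 0 rose and 6 fell, and in MDA-MB-231 2 rose and 2 fell (medians -0.27 and 0.02), where 28.6% of all genes rose and 22.1% fell in HS578T, and 20.7% rose and 21.9% fell in MDA-MB-231. OAS3, an oligoadenylate synthetase that double-stranded RNA activates, had 20.6 and 22.5 CPM in HS578T siGpx1, against 59.7 and 58.7 CPM in HS578T control. It had 34.6 and 30.8 CPM in MDA-MB-231 siGpx1, against 67.6 and 67.0 CPM in MDA-MB-231 control. It fell in both lines, by 1.40 ± 0.07 in HS578T and by 1.04 ± 0.07 in MDA-MB-231 on the log2 scale (adjusted p = 2.87e-10 and 5.55e-09 by edgeR's quasi-likelihood test). MAVS, the mitochondrial adaptor of RNA sensors, fell by 0.57 in HS578T and by 0.38 in MDA-MB-231.

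EIF2AK2, the kinase that PRKRA activates and TARBP2 inhibits, had 80.9 and 73.7 CPM in HS578T siGpx1, against 100.2 and 96.2 CPM in HS578T control. It had 93.2 and 89.0 CPM in MDA-MB-231 siGpx1, against 83.9 and 80.8 CPM in MDA-MB-231 control. It fell in HS578T (log2 -0.28 ± 0.06) and rose in MDA-MB-231 (0.15 ± 0.06), and the difference passed (0.43, adjusted p = 0.00165 by edgeR's quasi-likelihood test). The rise in MDA-MB-231 was lost under DESeq2 (adjusted p = 0.0563), both TPM fits and without HS578T control replicate 1 (0.054), MDA-MB-231 control replicate 2 (0.0968) or MDA-MB-231 siGpx1 replicate 1 (0.118), and was log2 0.23 without MDA-MB-231 siGpx1 replicate 2. TLR3, an endosomal sensor, did likewise, at -0.24 ± 0.09 in HS578T and 0.80 ± 0.10 in MDA-MB-231 (difference 1.04, adjusted p = 5.89e-05). The differences between the lines of EIF2AK2, TLR3, ADAR and RAN passed under every alternative run.

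The heptamers printed above were also held by some of these genes. The heptamers were picked on fold changes that include those of these genes, so the matches below support nothing. AGO1 and OAS3 hold 2 matches each in their 3′ UTRs, MAVS 2 and LSM14A 1, and all 4 fell in both lines. CNOT6L holds 1 and rose in both, AGO2 holds 1, and EDC3, CNOT6 and LIMD1, which fell, hold 0. The searched UTR of EDC3 had 103 bases, and 2.22% of UTRs of like length hold a match. For the lengths of CNOT6 and LIMD1 the shares were 26.9% and 49.4%. The sites in AGO1 (chromosome 1) and OAS3 (chromosome 12) are printed because these genes fell most among the named holders, a choice made on the outcome.
AGO1 first: gctgtttGGGCATCcaagaaa
AGO1 second: ataggaaGGCATCAttgacat
OAS3 first: ctggcctGGGCATCAcaagcca
OAS3 second: tataaatGGCATCAtacaa
In UTRs of a length like that of AGO1, 63.1% hold a match, and in those like that of OAS3, 21.8%. The share was 54.4% for the length of MAVS, 19.3% for LSM14A, 40.1% for CNOT6L and 68.8% for AGO2.

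Of 17 host transcripts that carry microRNA hairpins, 12 were tested. In HS578T 4 rose and 2 fell, and in MDA-MB-231 1 rose and 1 fell, beside the shares of all genes given for the other lists. Medians are not given because some hosts had 0 counts in a line. MIR100HG had 113 and 102 CPM in HS578T siGpx1, against 81.7 and 84.4 CPM in HS578T control, and 48.5 and 50.1 CPM in MDA-MB-231 siGpx1, against 20.9 and 22.4 CPM in MDA-MB-231 control. It rose in both lines (log2 0.44 ± 0.06 in HS578T and 1.19 ± 0.08 in MDA-MB-231). MIR22HG fell in both (log2 -0.23 ± 0.07 in HS578T and -0.63 ± 0.08 in MDA-MB-231), and its call in HS578T was lost under DESeq2 (adjusted p = 0.111) and without HS578T control replicate 2 (0.18) or siGpx1 replicate 2 (0.0587). MIR31HG rose in HS578T (log2 0.45 ± 0.13) and had 0 counts in all 4 MDA-MB-231 libraries, and MIR210HG rose in HS578T (0.46 ± 0.09). The call of MIR31HG was lost under DESeq2 (0.1), on log2(TPM + 0.1) and without HS578T control replicate 1 (0.0749) or siGpx1 replicate 2 (log2 0.22, adjusted p = 0.22, edgeR's quasi-likelihood test). The level of a host transcript is not that of the mature microRNA, which these libraries do not hold.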

How the data were processed

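Expected counts, TPM values and lengths per gene symbol were used as the authors deposited them. Per the submitters' processing notes, reads were quantified with RSEM 1.2.12 on hg19 and checked with FastQC, and the labels' protocols name a Qiagen RNeasy mini kit for total RNA. The deposited expected counts are RSEM's estimates, with reads shared among genes they fit. The deposited TPM values, per the file headers, are the same estimates per length. The effective lengths in the deposited tables are RSEM's own, and RSEM's mean length was used for isoform mix. The sources used here give no aligner, trimming or strandedness. Of nonzero counts, 94.7 to 94.9% were whole, and all were rounded. Groups came from the titles, and line names from the cell line tag, since the source label changes its number with each sample.

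Genes were kept by filterByExpr, scaled by TMM and fitted in edgeR 4.0.16 (R 4.3.3) with a mean per group on 8 libraries (4 residual degrees of freedom, biological coefficient of variation 0.0342). Contrasts were tested by the quasi-likelihood test with Benjamini-Hochberg adjustment over all 14249 genes. CPM printed per library and for markers use the library totals without TMM factors, so their ratios can differ from the fitted fold changes. With 2 libraries a group, precision comes from the spread shared over all groups. The members, pathway lists and markers were chosen with earlier results of these data known. Named from each list were up to 3 called genes per direction and line with the largest change among those with a mean of at least 5 TMM-scaled CPM, and for DICER1 and DROSHA the 3 genes of most alike pattern. Some genes these rules name are not reported here. The alternatives tried were edgeR with DESeq2 size factors, DESeq2 1.42.0, limma-voom (limma 3.58.1), no filter, a filter of 5 CPM in 2 libraries, each line alone, a replicate block, limma on log2(TPM + 1) and log2(TPM + 0.1), and each library left out. The 3′ UTRs came from GENCODE 29, matched by accession or symbol, and heptamers were ranked by a linear model of the log2 fold change. Its build is later than that of the files, so none of its coordinates was set against them. Figures were drawn with matplotlib 3.10.9 in Python 3.11.15.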

Additional observations from a re-analysis of the deposited data

Results flagged for a closer look

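The change of PRKRA after depletion differed between the lines, by -0.325 on the log2 scale for MDA-MB-231 minus HS578T. Both lines moved down, further in MDA-MB-231, and the difference passed edgeR's quasi-likelihood test (adjusted p = 0.0387) with 2 libraries a group. It passed in 2 of 16 alternatives, limma-voom (adjusted p = 0.0465) and the replicate block (0.03), and missed in the others (0.0545 to 0.432). No group had 4 libraries, so no library was tested as standing apart.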

How the results depend on the processing

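The calls of DICER1 and DROSHA in each line, and those of PRKRA and TNRC6B in MDA-MB-231, held under all 17 alternatives. Of 738 member values under alternatives, 631 kept direction and call, 63 lost a call, 16 gained one and 28 changed sign, none of the last called. Of 938 values of named pathway genes, 850 kept direction and call and 88 lost a call. In HS578T, 1 member was called higher, in place of 3, under DESeq2, log2(TPM + 1) and log2(TPM + 0.1), and 1 to 3 with a library left out; DESeq2 called 1 lower in place of 2. In MDA-MB-231, DESeq2 called 1938 genes lower, and leaving out a library 2033 to 3324. Genes called lower for the difference between the lines numbered 1000 under DESeq2 size factors, 543 under DESeq2, 994 and 804 under the TPM fits and 797 under the stricter filter, which called 1684 higher, and 513 to 1573 with a library left out. Members called higher there were 1 under DESeq2 size factors and the stricter filter and 0 to 1 with a library left out, and members called lower were 0 under DESeq2 size factors, DESeq2, no filter, the stricter filter, both TPM fits and every omission. The cause was not tested.

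The sign changed for DGCR8 in MDA-MB-231 (0.01661 with DESeq2 size factors, 0.01614 with DESeq2, 0.03185 with the stricter filter, -0.07643 to 0.1255 with a library left out). For the difference between the lines it changed for DROSHA (0.02847, 0.02841, 0.0737, and 0.02873 and 0.0304 with log2(TPM + 1) and log2(TPM + 0.1), -0.04193 to 0.08101 with a library left out), for XPO5 (0.01758, 0.01741, 0.06279, 0.01601 and 0.01854, -0.03429 to 0.09969) and, only with a library left out, for DICER1 (-0.1396 to 0.01158). For the average over the lines it changed for DGCR8 with a library left out (-0.09339 to 0.007682). The share of calls that were higher in MDA-MB-231 was 48.6% in the chosen fit. It was 58.9% under the stricter filter, 55.5% under DESeq2 size factors and 55.8% under DESeq2. Most calls there were also higher without any single MDA-MB-231 library.

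Deviations of like-numbered libraries correlated at -0.0348 in HS578T and 0.0545 in MDA-MB-231, so little was shared by replicate number. With 2 libraries a group this cannot tell whether libraries were paired, and the labels state no pairing. With the replicate block, 4078 genes were called higher in HS578T and 2920 in MDA-MB-231, against 4074 and 2950 without it, and 0 member calls changed in either line. Depth limits TARBP2 and TNRC6C most, with the fewest counts of the 9.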
